A study of Mus musculus with 12 samples.

Results

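The ATP-driven pumps of the mouse embryonic stem cell were followed as 62 protein-coding genes, chosen by symbol among the 55416 gene IDs of each count table. Their symbols begin with Atp6v or Atp6ap (the V-ATPase), Atp1a or Atp1b (the Na/K pump), Atp2a, Atp2b or Atp2c (calcium pumps), Atp7 (copper pumps), Atp8, Atp9 or Atp11 (P4 lipid flippases) or Atp13a (P5 ATPases). By role, 13 genes encode subunits of the soluble V1 sector of the V-ATPase, 48 encode membrane members, and Atp6v1fnb, which shares only the start of its symbol, was placed in neither class. Of the 62 genes, 53 passed the filter on low counts, 10 of the 13 V1 genes and 43 of the 48 membrane genes. The other 9 (Atp6v1b1, Atp6v1e2, Atp6v1g3, Atp6v0d2, Atp6ap1l, Atp1b4, Atp8b4, Atp13a5 and Atp6v1fnb) had at most 5 reads in the 3 libraries of any group together.

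The cells were E14Tg2a.4 embryonic stem cells, a line that grows without feeder cells, in which the ribosomal protein Rpl31 carried a FLAG-TEV-AviTag (Rpl31-FTA) in all 4 groups. Ribosomes close to the endoplasmic reticulum (ER) were biotinylated by ER-targeted ALIBi, a proximity-labelling system, and purified, and their poly-A RNA was sequenced beside whole-cell RNA of the lysate that entered the purification. Cells received either scramble siRNA or Lsg1 siRNA, and each siRNA gave a group of ER-bound RNA and a group of whole-cell RNA, 4 groups of 3 biological replicates in all. Lsg1 encodes a GTPase of late 60S ribosomal subunit maturation. Whether the tagged line is 1 clone is not given in the sources used here, so the p-values measure the spread between these samples. No library held RNA from all ribosomes of the cell, so a ratio of ER-bound to whole-cell RNA mixes how much an mRNA is translated with where it is translated, and less RNA per cell cannot be told apart from fewer cells with that RNA.

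The V-ATPase acidifies lysosomes, endosomes and Golgi compartments. Its V1 sector hydrolyses ATP on the cytosolic side and is built from proteins without membrane spans, while its V0 sector holds the proton-carrying ring of c subunits and the a subunit in the membrane, with the d subunit sitting on the ring from the cytosol. P-type pumps are single large chains with many membrane spans that are phosphorylated during transport, and several need a small partner, such as the beta subunit of the Na/K pump or a Tmem30 (CDC50) protein for most flippases, to leave the ER. Membrane spans are commonly recognised by the signal recognition particle while the chain is still on the ribosome, which brings the translating ribosome to the ER.

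The members differ in their coding sequence in a way that the choice by symbol did not use. Codons with T at position 2 specify hydrophobic residues, so a membrane span appears as a run of codons rich in T at that position. The window of 19 codons (57 bases) with the most such codons was found for each member in its GENCODE principal transcript. Windows are given below for some V-ATPase and Na/K beta members, with the T of each such codon in capitals. None is shown for Na/K alpha subunits, calcium pumps, copper pumps, P4 flippases or P5 ATPases.
Atp6v0c: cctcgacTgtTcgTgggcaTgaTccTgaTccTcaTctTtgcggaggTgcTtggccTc
Atp6v0b: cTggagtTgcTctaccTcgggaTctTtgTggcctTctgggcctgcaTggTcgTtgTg
Atp6ap2: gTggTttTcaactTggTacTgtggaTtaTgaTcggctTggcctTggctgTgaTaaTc
Atp1b1: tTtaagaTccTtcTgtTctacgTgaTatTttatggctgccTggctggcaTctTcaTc
Atp6v0d1: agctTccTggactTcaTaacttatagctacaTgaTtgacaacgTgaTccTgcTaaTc
Atp6v1a: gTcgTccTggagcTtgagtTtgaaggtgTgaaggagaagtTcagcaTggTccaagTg
Atp6v1b2: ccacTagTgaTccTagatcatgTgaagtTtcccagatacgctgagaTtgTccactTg
Atp6v1d: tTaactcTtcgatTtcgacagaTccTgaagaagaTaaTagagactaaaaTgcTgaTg
Atp6v1g1: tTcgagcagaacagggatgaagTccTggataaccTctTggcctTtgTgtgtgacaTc
The first 4 windows belong to proteins with membrane spans and hold 13 (Atp6v0c, codons 125 to 143), 12 (Atp6v0b), 14 (Atp6ap2, codons 305 to 323) and 12 (Atp1b1, codons 33 to 51) codons with T at position 2. The window of the peripheral d subunit Atp6v0d1 held 11, and those of the V1 subunits held 10 (Atp6v1a), 9 (Atp6v1b2), 10 (Atp6v1d) and 8 (Atp6v1g1). Over all tested members, 0 of 10 V1 genes and 41 of 42 membrane genes other than Atp6v0d1 reached 12 such codons, the exception being Atp6v0e2 with 11. Among the 14610 tested protein-coding genes, 21.1% reached 12. The classes were set by known role, and Atp6v0d1 was set apart for lacking a span, so their split is close to their definition. V1 genes were also shorter, with a median of 314.5 codons against 1045.5 for the membrane genes other than Atp6v0d1.

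Each library held between 38092178 and 56522114 reads in genes. All 7 embryonic stem cell markers listed (Pou5f1, Nanog, Sox2, Zfp42, Esrrb, Klf4 and Tdgf1) were tested and summed to between 5712 and 7719 CPM, read counts scaled by TMM to a common library size, against 7.00 to 9.81 CPM for 5 primitive endoderm markers and 24.9 to 55.8 CPM for 5 fibroblast markers. Lsg1 stood at 136, 144 and 149 CPM in whole-cell RNA with scramble siRNA and 83.5, 96.7 and 114 CPM with its own siRNA, where edgeR's test did not pass (log2 fold -0.55 (SE 0.10, adjusted p = 0.245)), and it fell on ER-labelled ribosomes (log2 fold -1.77 (SE 0.11, adjusted p = 6.28e-08)). ER-bound scramble replicate 1 stood apart from its group: of 9251 genes with a mean of at least 10 CPM, 3.65% lay more than 0.3 log2 units below the mean of the other 2 libraries, against at most 0.216% in any of the other 11 libraries. Of the 37 members at that level, 5 did so in this library, Atp2a2, Atp2b1 and Atp7a among them, and 0 in every other, so results on these 3 genes are given with and without it. In replicates 3 and 2 of the same group 1.5% and 0.562% of the genes lay more than 0.3 log2 units above the other 2 libraries. In the other groups at most 0.27% did. Above in this way were 2 members in ER-bound scramble replicate 3. An unnamed gene (ENSMUSG00000119584.1) was several times higher in replicate 3 of the ER-bound scramble group and of the whole-cell Lsg1 group than in the other 10 libraries, and the fits were repeated without both.

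Many membrane members were enriched in ER-bound over whole-cell RNA, among them 6 of the 7 tested V0 integral subunits and all tested accessory and Na/K beta subunits, while the soluble V1 subunits were spread around 0, as the plot of log2 folds by role shows. In scramble cells 33 of the 53 tested members passed edgeR's test of ER-bound against whole-cell RNA, a share near the 58.9% of all 17702 genes that passed. By direction, 29.8% of all genes were higher and 29.1% lower. Of the members, 22 membrane members were higher, 6 were lower and 15 were not called, while 3 V1 subunits were higher, 2 were lower and 5 were not called. Without ER-bound scramble replicate 1, 25 membrane members were higher and 5 lower, beside 4959 higher and 4982 lower of 17970 genes. The median log2 fold was 0.19 over the 43 membrane members and 0.04 over the 10 V1 subunits, beside 0.03 over all genes tested. In Lsg1 siRNA cells 40 members passed, against 60.3% of all genes, with 28 membrane members higher and 6 lower (30.6% and 29.8% of all genes) and 4 V1 subunits higher and 2 lower. There the medians were 0.37 for membrane members, 0.02 for V1 subunits and 0.02 for all genes. Taken gene by gene, the change of the fold between siRNAs had a median of 0.08 over the 43 membrane members. In edgeR's test of that change, the interaction, 0 of 53 members passed. Without ER-bound scramble replicate 1 the scramble median of the membrane members was 0.21. In cells with scramble siRNA all 3 ER-bound libraries lay above all 3 whole-cell libraries for 20 of 43 membrane members and 5 of 10 V1 subunits (32.6% of all genes), and below them for 5 and 2 (31.4%). With Lsg1 siRNA 28 membrane members and 4 V1 subunits lay above in this way (33% of all genes) and 6 and 2 below (31.5%).

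**Figure D1:**
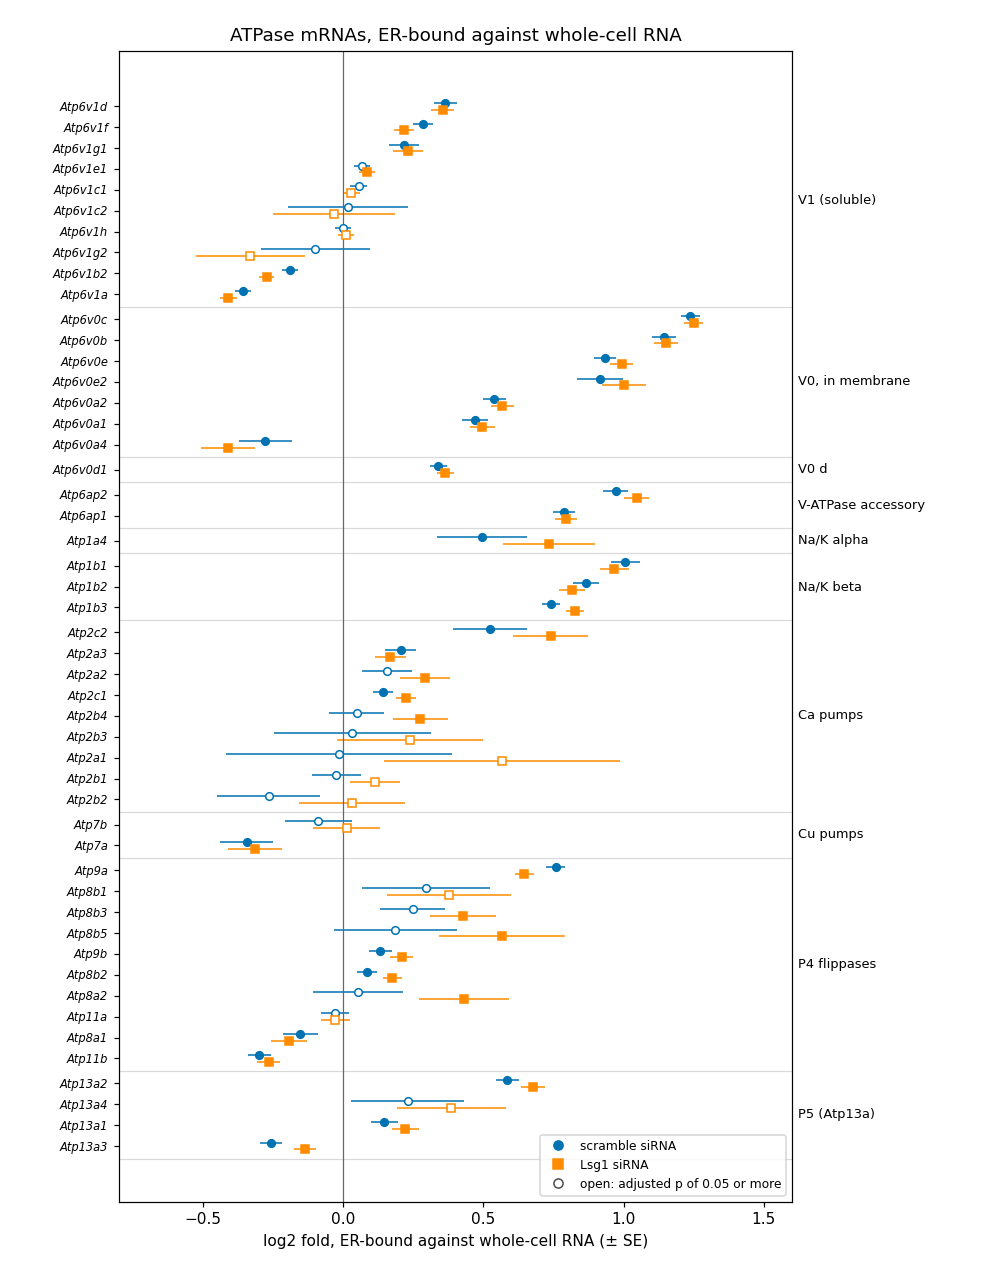
Log2 fold of ER-bound against whole-cell RNA on the x axis (bars are SE) for the tested members shown, grouped by role, in scramble (circles) and Lsg1 siRNA cells (squares); filled symbols passed edgeR's test. V0 integral subunits other than Atp6v0a4, accessory subunits and Na/K beta subunits lie from 0.47 to 1.25, and V1 subunits lie between -0.41 and 0.36.

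The sums over the subunits of each sector showed the difference in every library. The V1 subunits together stood at 921, 918 and 928 CPM in whole-cell RNA and 925, 915 and 908 CPM on ER-labelled ribosomes of scramble cells, means of 922 ± 5.38 and 916 ± 8.52 CPM (SD, n = 3). The V0 subunits stood at 322, 313 and 315 CPM and 551, 531 and 535 CPM. The V1 libraries of the 2 fractions overlapped, and the V0 libraries were far apart, so that the ratio of the V0 sum to the V1 sum rose from 0.343 ± 0.00557 to 0.588 ± 0.00801 between the fractions. With Lsg1 siRNA the same ratio was 0.346 ± 0.00760 in whole-cell RNA and 0.613 ± 0.00408 on ER-labelled ribosomes. These sums are dominated by the more abundant subunits and carry no test of their own. The V0 sum includes Atp6v0d1, which has no membrane span, at a mean of 94.1 CPM in whole-cell RNA of scramble cells. It also includes Atp6v0c, whose level is uncertain because reads can be shared with a processed copy. The sums were not corrected for transcript length.

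**Figure D2:**
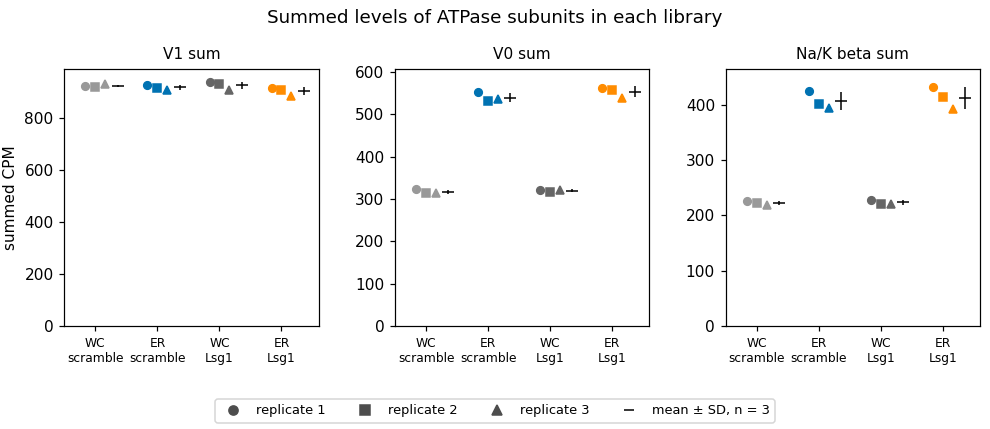
Summed CPM of V1 subunits, V0 subunits and Na/K beta subunits in each of the 12 libraries (y axis from 0; symbols are replicates, bars are mean ± SD, n = 3). The V0 and beta sums are higher in all 6 ER-bound libraries than in any whole-cell library, and the V1 sums lie between 884 and 936 CPM throughout.

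With TMM scaling the 2 tested subunits of the catalytic head of V1 were lower for both siRNAs, the stalk subunits Atp6v1d, Atp6v1f and Atp6v1g1 were higher, and of these 3 only Atp6v1d was still called with an offset for transcript length and GC content. Atp6v1a, the ATP-hydrolysing A subunit, was lower on ER-labelled ribosomes: 172, 167 and 171 CPM in whole-cell RNA and 132, 133 and 133 CPM on ER-labelled ribosomes of scramble cells. With Lsg1 siRNA Atp6v1a stood at 170.0, 166 and 163 CPM in whole-cell and 125, 127 and 123 CPM in ER-bound RNA. Its log2 fold was -0.36 (SE 0.03, adjusted p = 5.41e-09) in scramble and -0.41 (SE 0.03, adjusted p = 8.26e-10) in Lsg1 siRNA cells. The fractions did not overlap for either siRNA. Atp6v1b2, the B subunit that alternates with A in the head, stood at 219.7, 217 and 223 CPM in whole-cell RNA and 191, 195 and 193 CPM on ER-labelled ribosomes of scramble cells. With Lsg1 siRNA Atp6v1b2 stood at 217, 222 and 218 CPM in whole-cell and 177, 185 and 182 CPM in ER-bound RNA. For Atp6v1b2 the log2 folds were -0.19 (SE 0.03, adjusted p = 9.23e-06) and -0.27 (SE 0.03, adjusted p = 9.24e-08). It too was below the whole-cell level in every same-numbered pair, and with the offset its folds were -0.30 (adjusted p = 3.13e-08) and -0.39 (adjusted p = 5.74e-10).

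Atp6v1d, a subunit of the central rotor stalk, had the highest fold of the tested V1 genes. It stood at 74.1, 76.5 and 74.8 CPM in whole-cell RNA and 102, 95.0 and 92.6 CPM on ER-labelled ribosomes of scramble cells. With Lsg1 siRNA Atp6v1d stood at 76.5, 78.1 and 72.7 CPM in whole-cell and 101, 95.6 and 94.8 CPM in ER-bound RNA. For Atp6v1d the log2 folds were 0.36 (SE 0.04, adjusted p = 4.48e-07) and 0.36 (SE 0.04, adjusted p = 5.61e-07). No ER-bound library reached down to a whole-cell library, and with the offset Atp6v1d was still higher (0.46, adjusted p = 1.09e-08 and 0.44, adjusted p = 1.84e-08). Atp6v1f, the other rotor subunit, stood at 65.4, 66.4 and 69.0 CPM in whole-cell RNA and 82.9, 80.2 and 81.4 CPM on ER-labelled ribosomes of scramble cells. With Lsg1 siRNA Atp6v1f stood at 67.8, 69.4 and 70.2 CPM in whole-cell and 83.7, 79.1 and 78.0 CPM in ER-bound RNA. Its log2 folds were 0.28 (SE 0.04, adjusted p = 1.52e-06) and 0.22 (SE 0.04, adjusted p = 3.71e-05). With the offset they were 0.03 (adjusted p = 0.596) and -0.03 (adjusted p = 0.603), so both calls were lost and the second turned in sign. Atp6v1g1, a peripheral stalk subunit, stood at 80.5, 81.2 and 80.0 CPM in whole-cell RNA and 97.9, 93.2 and 89.8 CPM on ER-labelled ribosomes of scramble cells. With Lsg1 siRNA Atp6v1g1 stood at 85.2, 78.5 and 77.9 CPM in whole-cell and 103, 93.8 and 86.6 CPM in ER-bound RNA. For Atp6v1g1 the log2 folds were 0.22 (SE 0.05, adjusted p = 0.00165) and 0.23 (SE 0.05, adjusted p = 0.000908), and both calls were lost with the offset (0.06, adjusted p = 0.266 and 0.08, adjusted p = 0.17). Its partner in the peripheral stalks, Atp6v1e1, did not pass in scramble cells (log2 fold 0.07 (SE 0.03, adjusted p = 0.054)) and passed in Lsg1 siRNA cells (0.08, SE 0.03, adjusted p = 0.0181). Atp6v1e1 ranged over 121, 123 and 124 CPM in whole-cell RNA and 129, 128 and 129 CPM on ER-labelled ribosomes of scramble cells. With Lsg1 siRNA Atp6v1e1 stood at 128, 125 and 122 CPM in whole-cell and 131, 133 and 134 CPM in ER-bound RNA, a difference of a few CPM. The call for Atp6v1e1 in Lsg1 siRNA cells was lost or turned in 17 of the 24 alternatives, 10 of them with 1 library left out, and it rested on every library but ER-bound scramble replicate 1 and ER-bound Lsg1 replicate 1. DESeq2 gave an adjusted p of 0.0721, and the sign turned with the offset (-0.08, adjusted p = 0.0465), under which the gene was also lower in scramble cells (-0.09, adjusted p = 0.0199). Atp6v1h and Atp6v1c1, which regulate or connect the stalks, had log2 folds of -0.00 and 0.06 in scramble cells and did not pass. Atp6v1c2 and Atp6v1g2, tissue-restricted isoforms, were below 1 CPM in all 12 libraries and did not pass either.

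Of the tested members, the ring subunits Atp6v0c and Atp6v0b had the largest folds for both siRNAs with TMM scaling. With the length and GC offset Atp6ap2 led for both siRNAs (1.06 in scramble and 1.13 in Lsg1 siRNA cells). Atp6v0c was then at 0.95 and 0.96, and Atp6v0b at 0.86 and 0.87. Atp6v0c, the c subunit that forms most of the proton-carrying ring, stood at 35.2, 34.3 and 35.7 CPM in whole-cell RNA and 83.6, 82.1 and 82.5 CPM on ER-labelled ribosomes of scramble cells. With Lsg1 siRNA Atp6v0c stood at 34.0, 34.2 and 35.1 CPM in whole-cell and 81.2, 84.7 and 79.9 CPM in ER-bound RNA. Its log2 fold was 1.24 (SE 0.03, adjusted p = 1.2e-14) in scramble and 1.25 (SE 0.03, adjusted p = 8.06e-15) in Lsg1 siRNA cells, and every ER-bound library lay far above every whole-cell library. Reads of Atp6v0c can be shared with its processed copy Atp6v0c-ps2 on chromosome 6, which held 37102 reads over the 12 libraries against 32238 for Atp6v0c on chromosome 17. The copy had a like fold, 1.26 (SE 0.03, adjusted p = 8.06e-15) in scramble cells. How the reads of the gene and the copy were divided is not given in the sources used here, so the level of Atp6v0c is uncertain.

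Atp6v0b, the c'' subunit of the same ring, stood at 62.9, 59.7 and 57.7 CPM in whole-cell RNA and 141, 127 and 131 CPM on ER-labelled ribosomes of scramble cells. With Lsg1 siRNA Atp6v0b stood at 61.9, 61.4 and 59.4 CPM in whole-cell and 140.1, 136 and 131 CPM in ER-bound RNA. For Atp6v0b the log2 folds were 1.14 (SE 0.04, adjusted p = 3.59e-13) and 1.15 (SE 0.04, adjusted p = 2.3e-13). Atp6v0e, a small subunit beside the ring, stood at 49.2, 49.4 and 49.5 CPM in whole-cell RNA and 97.6, 90.5 and 94.9 CPM on ER-labelled ribosomes of scramble cells. With Lsg1 siRNA Atp6v0e stood at 46.6, 49.4 and 51.7 CPM in whole-cell and 101, 98.9 and 94.9 CPM in ER-bound RNA. For Atp6v0e the log2 folds were 0.93 (SE 0.04, adjusted p = 1.62e-12) and 0.99 (SE 0.04, adjusted p = 5.81e-13). Neither overlapped between fractions for either siRNA. The less abundant isoform Atp6v0e2 also rose (0.91, SE 0.08, adjusted p = 1.91e-08 in scramble cells). Atp6v0a1 and Atp6v0a2, isoforms of the a subunit through which protons enter and leave and whose long cytosolic part precedes the membrane spans, had log2 folds of 0.47 (SE 0.05, adjusted p = 6.47e-08) and 0.54 (SE 0.04, adjusted p = 1.61e-09) in scramble cells.

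Atp6v0a4, the a isoform known from kidney and inner ear, was the only one of the 8 tested V0 members that was lower. It stood at 8.27, 7.38 and 7.37 CPM in whole-cell RNA and 6.64, 6.64 and 5.62 CPM on ER-labelled ribosomes of scramble cells. With Lsg1 siRNA Atp6v0a4 stood at 7.34, 7.08 and 7.29 CPM in whole-cell and 6.31, 4.68 and 5.19 CPM in ER-bound RNA. For Atp6v0a4 the log2 folds were -0.28 (SE 0.09, adjusted p = 0.0165) and -0.41 (SE 0.10, adjusted p = 0.00129). The fractions did not overlap, at a level of 4.68 to 8.27 CPM. The scramble call was lost with library totals as the scaling (adjusted p = 0.0893), without whole-cell scramble replicate 1 (0.0542) and without ER-bound scramble replicate 3 (0.0600). Atp6v0d1, the d subunit that has no membrane span, stood at 95.4, 91.9 and 95.0 CPM in whole-cell RNA and 119, 121 and 117 CPM on ER-labelled ribosomes of scramble cells. With Lsg1 siRNA Atp6v0d1 stood at 98.3, 95.1 and 94.1 CPM in whole-cell and 125, 123 and 121 CPM in ER-bound RNA. For Atp6v0d1 the log2 folds were 0.34 (SE 0.03, adjusted p = 3.26e-08) and 0.36 (SE 0.03, adjusted p = 1.15e-08). With TMM scaling its fold lay below those of the 6 integral V0 subunits that rose and near that of the V1 stalk subunit Atp6v1d. With the length and GC offset it was 0.09 (adjusted p = 0.0223) in scramble and 0.12 (adjusted p = 0.00389) in Lsg1 siRNA cells. It was then no longer near that of Atp6v1d (0.46 and 0.44).

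The 2 tested accessory subunits, single-span proteins with a domain in the ER or vesicle lumen that take part in V-ATPase assembly, both rose. Atp6ap2, also known as the prorenin receptor, stood at 47.2, 45.1 and 45.1 CPM in whole-cell RNA and 93.7, 90.2 and 85.4 CPM on ER-labelled ribosomes of scramble cells. With Lsg1 siRNA Atp6ap2 stood at 47.3, 45.3 and 43.8 CPM in whole-cell and 98.3, 94.6 and 88.7 CPM in ER-bound RNA. For Atp6ap2 the log2 folds were 0.97 (SE 0.04, adjusted p = 3.39e-12) and 1.05 (SE 0.04, adjusted p = 1.11e-12). Atp6ap1 stood at 38.8, 37.7 and 39.3 CPM in whole-cell RNA and 70.8, 64.2 and 64.9 CPM on ER-labelled ribosomes of scramble cells. With Lsg1 siRNA Atp6ap1 stood at 39.1, 38.9 and 37.4 CPM in whole-cell and 68.1, 66.2 and 65.9 CPM in ER-bound RNA. For Atp6ap1 the log2 folds were 0.79 (SE 0.04, adjusted p = 1.11e-11) and 0.79 (SE 0.04, adjusted p = 8.15e-12). Neither overlapped between fractions.

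Of 13 listed V-ATPase partners that are not members, 6 were higher, 6 lower and 1 was not called for each siRNA, beside 29.8% higher and 29.1% lower of all genes in scramble cells. Those higher were membrane proteins: Tcirg1, which encodes the a3 subunit of V0 (0.54, SE 0.09, adjusted p = 7.78e-05 in scramble cells), the assembly factors Vma21 (0.45) and Tmem199 (0.50), and Rnasek, Tmem9 and Tmem9b (1.02, 1.09 and 0.93). Tcirg1 held 7.99 ± 0.269 CPM in whole-cell RNA and 11.7 ± 1.70 CPM on ER-labelled ribosomes (SD, n = 3). Those lower were Dmxl1 (-1.36, SE 0.06, adjusted p = 2.46e-12), Dmxl2 (-1.25) and Wdr7 (-0.73), soluble proteins of the RAVE-like complex that reassembles V1 onto V0, and Oxr1, Ncoa7 and Ccdc115 (-0.32, -0.17 and -0.20). The remaining partner, Rogdi, was not called in scramble cells. How far the folds of the partners follow transcript length was not tested.

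Per kilobase of principal transcript, V1 subunits led the V-ATPase in whole-cell RNA. In scramble cells Atp6v1f (95.2 ± 2.61 CPM per kb, SD, n = 3) and Atp6v1e1 (93.6 ± 0.894) were highest and did not differ beyond their spread. Atp6v1b2 (77.9 ± 0.934) and Atp6v1g1 (71.0 ± 0.526) followed, then the ring subunit Atp6v0b (60.1 ± 2.64) and Atp6v0d1 (57.8 ± 1.17), which lay within their spread of each other. Atp6v1a stood at 40.1 ± 0.663 and Atp6v0c at 29.6 ± 0.574 CPM per kb, where the place of Atp6v0c depends on how its reads were divided with its copy. On ER-labelled ribosomes the order changed at its head: Atp6v0b (133 ± 7.13 CPM per kb) came first, ahead of Atp6v1f (116 ± 1.90), and Atp6v0c (69.9 ± 0.645) passed Atp6v1a (31.3 ± 0.144). This order too, its first place included, depends on how the reads of Atp6v0c and its copy were divided. Among the a isoforms that are members, which leaves out a3 (Tcirg1), levels per kb in whole-cell RNA ran from Atp6v0a1 (8.99 ± 0.478) through Atp6v0a2 (4.83 ± 0.203) to Atp6v0a4 (2.32 ± 0.155). Lengths came from 1 transcript a gene, and the isoforms used in these cells were not measured.

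The Na/K pump, which exports sodium and imports potassium across the plasma membrane, had beta subunits with log2 folds from 0.74 to 1.01 in scramble cells. Atp1b1, a beta subunit with 1 span and a glycosylated outer domain that brings alpha out of the ER, stood at 98.4, 93.2 and 90.4 CPM in whole-cell RNA and 202, 183 and 181 CPM on ER-labelled ribosomes of scramble cells. With Lsg1 siRNA Atp1b1 stood at 98.5, 91.6 and 91.2 CPM in whole-cell and 196, 183 and 171 CPM in ER-bound RNA. For Atp1b1 the log2 folds were 1.01 (SE 0.05, adjusted p = 1.48e-11) and 0.97 (SE 0.05, adjusted p = 2.13e-11). Atp1b3 stood at 106, 108 and 106 CPM in whole-cell RNA and 182, 179 and 174 CPM on ER-labelled ribosomes of scramble cells. With Lsg1 siRNA Atp1b3 stood at 110.2, 109 and 108 CPM in whole-cell and 198, 196 and 185 CPM in ER-bound RNA. For Atp1b3 the log2 folds were 0.74 (SE 0.03, adjusted p = 1.53e-12) and 0.83 (SE 0.03, adjusted p = 3.24e-13). Atp1b2 rose by 0.87 and 0.82, and none of the 3 overlapped between fractions.

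Atp1a4, a catalytic alpha subunit known from sperm, stood at 0.963, 1.15 and 1.31 CPM in whole-cell RNA and 1.55, 1.42 and 1.95 CPM on ER-labelled ribosomes of scramble cells. With Lsg1 siRNA Atp1a4 stood at 0.969, 0.942 and 0.991 CPM in whole-cell and 1.42, 1.66 and 1.85 CPM in ER-bound RNA. For Atp1a4 the log2 folds were 0.50 (SE 0.16, adjusted p = 0.0126) and 0.73 (SE 0.16, adjusted p = 0.000821); the scramble call was lost without whole-cell scramble replicate 1 (adjusted p = 0.0741) and without ER-bound scramble replicate 3 (0.102).

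The summed beta level was 424, 400.5 and 394 CPM in the 3 ER-bound scramble libraries, against 225, 223 and 218 CPM in whole-cell RNA. With Lsg1 siRNA it was 431, 414 and 391 CPM in ER-bound and 228, 220.1 and 221 CPM in whole-cell RNA. The fractions did not overlap for either siRNA.

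**Figure D3:**
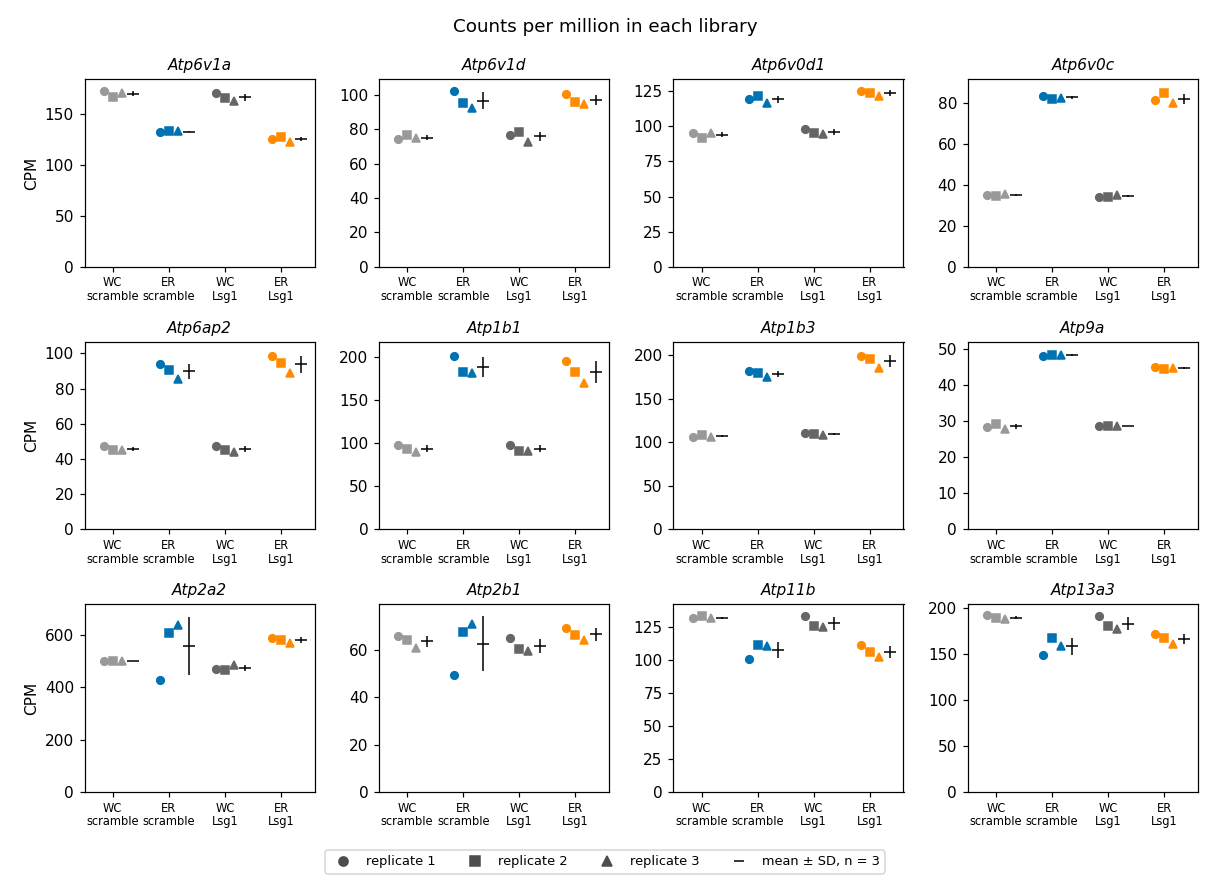
CPM (y axis from 0) of 12 members in each library of the 4 groups, whole-cell (WC) and ER-bound (ER) RNA with scramble or Lsg1 siRNA; symbols mark the replicate and bars the mean ± SD (n = 3). Atp6v0c, Atp6ap2, Atp1b1, Atp1b3 and Atp9a are separated between fractions, Atp6v1a and Atp11b are lower in ER-bound RNA, and replicate 1 of ER-bound scramble RNA falls low for Atp2a2 and Atp2b1.

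Calcium pumps were higher on ER-labelled ribosomes in 3 of 9 members in scramble cells and 5 of 9 in Lsg1 siRNA cells, with none lower. The scramble count is near the share of all genes (29.8% higher), and in Lsg1 siRNA cells 30.6% of all genes were higher. With the length and GC offset 6 were higher in scramble and 5 in Lsg1 siRNA cells, with 0 lower. Of all 17702 genes 4475 and 4583 were then higher. Atp2a2, the SERCA pump that fills the ER with calcium, stood at 501, 499 and 499.8 CPM in whole-cell RNA and 428, 606 and 635 CPM on ER-labelled ribosomes of scramble cells. With Lsg1 siRNA Atp2a2 stood at 469, 465 and 485 CPM in whole-cell and 589, 581 and 569 CPM in ER-bound RNA. Its log2 fold in scramble cells was 0.15 (SE 0.09, adjusted p = 0.147), and 0.31 (adjusted p = 6.96e-09) without ER-bound scramble replicate 1, which lay below every whole-cell library. In Lsg1 siRNA cells it was 0.29 (SE 0.09, adjusted p = 0.00851). Atp2b1, the plasma membrane calcium exporter PMCA1, had 49.2, 67.3 and 70.7 CPM on ER-labelled ribosomes of scramble cells against 65.5, 64.1 and 60.8 in whole-cell RNA, and its log2 fold of -0.02 (SE 0.09, adjusted p = 0.837) turned to 0.12 (adjusted p = 0.0291) without replicate 1. With the offset for length and GC content Atp2b1 was higher for both siRNAs (0.37, adjusted p = 5.91e-05 and 0.49, adjusted p = 1.87e-06), and Atp2a2 passed in scramble cells too (0.21, adjusted p = 0.0237). Atp2c1, a calcium and manganese pump of the Golgi, stood at 86.5, 85.2 and 85.6 CPM in whole-cell RNA and 90.4, 97.2 and 96.3 CPM on ER-labelled ribosomes of scramble cells. With Lsg1 siRNA Atp2c1 stood at 89.5, 85.2 and 84.9 CPM in whole-cell and 103, 103 and 97.5 CPM in ER-bound RNA. For Atp2c1 the log2 folds were 0.14 (SE 0.04, adjusted p = 0.00276) and 0.22 (SE 0.04, adjusted p = 3.43e-05). Its fractions did not overlap for either siRNA, and with the offset its folds were 0.50 (adjusted p = 3.26e-11) and 0.57 (adjusted p = 4.21e-12).

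Atp2c2, its relative known from secretory epithelia, stood at 1.93, 1.49 and 1.50 CPM in whole-cell RNA and 2.40, 2.31 and 2.36 CPM on ER-labelled ribosomes of scramble cells. With Lsg1 siRNA Atp2c2 stood at 1.71, 1.43 and 1.20 CPM in whole-cell and 2.52, 2.43 and 2.36 CPM in ER-bound RNA. For Atp2c2 the log2 folds were 0.52 (SE 0.13, adjusted p = 0.00229) and 0.74 (SE 0.13, adjusted p = 0.000104). Atp2a3, another SERCA pump, passed as higher for both siRNAs (0.21 and 0.17); the Lsg1 siRNA call was lost without ER-bound Lsg1 replicate 1 (adjusted p = 0.104) or 2 (0.0614), without whole-cell Lsg1 replicate 3 (0.0611) and with the offset (0.12, adjusted p = 0.0547). Atp2b4 passed with Lsg1 siRNA alone (0.28, SE 0.10, adjusted p = 0.0225), which was not a difference between siRNAs by the interaction test (adjusted p = 0.834). Without ER-bound Lsg1 replicate 2 or 3, or whole-cell Lsg1 replicate 1 or 2, the Atp2b4 call was lost (adjusted p from 0.0503 to 0.0947), while the offset gave 0.59 (adjusted p = 3.79e-06) in scramble and 0.77 (adjusted p = 9.66e-08) in Lsg1 siRNA cells. Atp2b2, known from the inner ear and cerebellum, did not pass, with log2 folds of -0.27 and 0.03 at 3.24, 3.31 and 2.06 CPM in whole-cell RNA and 2.32, 2.23 and 2.55 CPM on ER-labelled ribosomes of scramble cells. With Lsg1 siRNA Atp2b2 stood at 2.65, 2.32 and 2.05 CPM in whole-cell and 3.07, 2.28 and 1.75 CPM in ER-bound RNA. Atp2a1 and Atp2b3 stayed below 0.5 CPM and did not pass. The small SERCA inhibitors Pln and Sln had no reads.

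The copper pump Atp7a, which moves copper into the Golgi and out of the cell, was lower. It stood at 12.5, 12.7 and 12.6 CPM in whole-cell RNA and 8.07, 10.0 and 11.7 CPM on ER-labelled ribosomes of scramble cells. With Lsg1 siRNA Atp7a stood at 12.3, 11.3 and 10.6 CPM in whole-cell and 9.48, 9.30 and 8.61 CPM in ER-bound RNA. For Atp7a the log2 folds were -0.34 (SE 0.09, adjusted p = 0.00429) and -0.32 (SE 0.10, adjusted p = 0.00903), with no overlap between fractions. Without ER-bound scramble replicate 1 the scramble fold was -0.22 (adjusted p = 0.0148). With the length and GC offset the values were -0.17 (adjusted p = 0.076) and -0.16 (adjusted p = 0.0992), so the call was lost. Atp7b, the copper pump of liver, did not pass (-0.09 and 0.01) at 4.90, 5.81 and 4.82 CPM in whole-cell RNA and 4.18, 5.39 and 5.04 CPM on ER-labelled ribosomes of scramble cells. With Lsg1 siRNA Atp7b stood at 5.53, 4.76 and 4.46 CPM in whole-cell and 5.68, 4.83 and 4.26 CPM in ER-bound RNA. Atox1, the cytosolic protein that hands copper to both pumps, was slightly higher (0.20, SE 0.04, adjusted p = 0.000721 in scramble cells).

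With TMM scaling the P4 flippases, which move phospholipids to the cytosolic leaflet, went in both directions in scramble cells. Of 11 tested, 3 were higher (Atp8b2, Atp9a and Atp9b), 3 lower (Atp8a1 and Atp11b among them) and 5 not called. These shares were near those of all genes (29.8% higher and 29.1% lower). With the length and GC offset 7 were higher and 0 lower, beside 4475 higher and 5727 lower of all 17702 genes. In Lsg1 siRNA cells the offset gave 10 higher and 0 lower, beside 4583 higher and 6019 lower of all genes. Atp9a, an endosomal flippase that works without a Tmem30 partner, was the tested P-type pump with the largest fold in scramble cells. It stood at 28.5, 29.3 and 27.9 CPM in whole-cell RNA and 48.1, 48.5 and 48.5 CPM on ER-labelled ribosomes of scramble cells. With Lsg1 siRNA Atp9a stood at 28.7, 28.7 and 28.7 CPM in whole-cell and 45.2, 44.7 and 45.0 CPM in ER-bound RNA. For Atp9a the log2 folds were 0.76 (SE 0.03, adjusted p = 1.56e-12) and 0.65 (SE 0.03, adjusted p = 9.48e-12). Its libraries of 1 group lay close together and the fractions lay far apart. Atp9b rose too (0.13, SE 0.04, adjusted p = 0.00911 and 0.21, SE 0.04, adjusted p = 0.000207), with the scramble call lost without whole-cell scramble replicate 2 (adjusted p = 0.0819) or ER-bound scramble replicate 3 (0.123). Atp8b2 stood at 47.5, 47.7 and 48.8 CPM in whole-cell RNA and 49.6, 51.0 and 52.1 CPM on ER-labelled ribosomes of scramble cells. With Lsg1 siRNA Atp8b2 stood at 45.6, 46.6 and 44.5 CPM in whole-cell and 51.8, 52.8 and 49.8 CPM in ER-bound RNA. For Atp8b2 the log2 folds were 0.08 (SE 0.03, adjusted p = 0.0453) and 0.18 (SE 0.04, adjusted p = 0.000289). The scramble call of Atp8b2, at the threshold, was lost in 18 of the 24 alternatives, 11 of them with 1 library left out, the exception being ER-bound scramble replicate 1. With the offset Atp9b was 0.24 (adjusted p = 1.31e-05) in scramble cells and Atp8b2 0.11 (adjusted p = 0.00735) in Lsg1 siRNA cells.

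Atp11b, a flippase of endosomal membranes, stood at 131, 133 and 132 CPM in whole-cell RNA and 100.5, 111 and 110.3 CPM on ER-labelled ribosomes of scramble cells. With Lsg1 siRNA Atp11b stood at 134, 125 and 125 CPM in whole-cell and 111, 106 and 102 CPM in ER-bound RNA. For Atp11b the log2 folds were -0.30 (SE 0.04, adjusted p = 6.56e-06) and -0.27 (SE 0.04, adjusted p = 2.47e-05). Atp8a1 stood at 18.0, 17.7 and 16.0 CPM in whole-cell RNA and 14.4, 16.1 and 15.9 CPM on ER-labelled ribosomes of scramble cells. With Lsg1 siRNA Atp8a1 stood at 17.0, 15.6 and 15.3 CPM in whole-cell and 14.3, 14.5 and 13.0 CPM in ER-bound RNA. For Atp8a1 the log2 folds were -0.15 (SE 0.06, adjusted p = 0.0462) and -0.19 (SE 0.06, adjusted p = 0.0159). Every ER-bound library of Atp11b lay below every whole-cell library of the same siRNA, whereas Atp8a1 overlapped in scramble cells. The scramble call of Atp8a1 was lost without ER-bound scramble replicate 1 (adjusted p = 0.156) and without whole-cell scramble replicate 1 (0.0909) or 2 (0.112). These falls depended on the correction for length and GC content: with that offset Atp8a1 was 0.25 (adjusted p = 0.000477) and 0.18 (adjusted p = 0.009), and Atp11b 0.0016 and 0.021 in scramble and Lsg1 siRNA cells. In Lsg1 siRNA cells Atp8a2 (0.43), Atp8b3 (0.43) and Atp8b5 (0.57) also passed as higher. The calls of Atp8a2 and Atp8b5 were each lost with 5 of the 12 libraries left out in turn and with DESeq2 (adjusted p = 0.121 and 0.0734), and that of Atp8b5 with the lysate as a block (0.55, adjusted p = 0.0630). For Atp8a2 these were all Lsg1 libraries but ER-bound replicate 3, and for Atp8b5 whole-cell scramble replicate 1, ER-bound Lsg1 replicates 1 and 3 and whole-cell Lsg1 replicates 1 and 2. Tmem30a, the shared partner that most P4 flippases need to leave the ER, was higher (0.42 (SE 0.04, adjusted p = 9.9e-08), 55.5 ± 1.79 CPM against 41.3 ± 0.938 CPM, SD, n = 3), as was Tmem30b (0.85, SE 0.07, adjusted p = 9.89e-09). Of 20 listed P-type partners and relatives 12 were tested, and 8 were higher and none lower in scramble cells (29.8% and 29.1% of all genes), with Fxyd6, a regulator of the Na/K pump, at 0.77 (SE 0.08, adjusted p = 1.3e-07).

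Among P5 ATPases, Atp13a2, a lysosomal polyamine exporter, stood at 46.1, 43.8 and 43.7 CPM in whole-cell RNA and 65.0, 67.6 and 67.7 CPM on ER-labelled ribosomes of scramble cells. With Lsg1 siRNA Atp13a2 stood at 43.5, 44.1 and 45.7 CPM in whole-cell and 72.1, 74.6 and 66.3 CPM in ER-bound RNA. For Atp13a2 the log2 folds were 0.59 (SE 0.04, adjusted p = 1.11e-09) and 0.68 (SE 0.04, adjusted p = 1.42e-10). Atp13a1, which removes misplaced tail-anchored and mitochondrial helices from the ER membrane, stood at 80.1, 82.8 and 88.6 CPM in whole-cell RNA and 88.5, 92.3 and 97.8 CPM on ER-labelled ribosomes of scramble cells. With Lsg1 siRNA Atp13a1 stood at 78.7, 84.6 and 86.8 CPM in whole-cell and 93.2, 99.4 and 99.3 CPM in ER-bound RNA. For Atp13a1 the log2 folds were 0.15 (SE 0.05, adjusted p = 0.0125) and 0.22 (SE 0.05, adjusted p = 0.000534). Its scramble libraries met at 88.6 and 88.5 CPM, and the scramble call was lost without whole-cell scramble replicate 1 or 2 and without ER-bound scramble replicate 3. It was also lost with the length and GC offset (0.05, adjusted p = 0.329), where the Lsg1 siRNA value was 0.11 (adjusted p = 0.0384). Atp13a3, a polyamine transporter of endosomes, was lower: it stood at 192, 189 and 188 CPM in whole-cell RNA and 149, 168 and 159 CPM on ER-labelled ribosomes of scramble cells. With Lsg1 siRNA Atp13a3 stood at 191, 181 and 177 CPM in whole-cell and 172, 167 and 161 CPM in ER-bound RNA. For Atp13a3 the log2 folds were -0.26 (SE 0.04, adjusted p = 2.32e-05) and -0.14 (SE 0.04, adjusted p = 0.00749). With the length and GC offset it was higher, at 0.32 (adjusted p = 5.39e-08) and 0.42 (adjusted p = 8.14e-10).

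Longer transcripts had lower folds among the membrane members. Spearman's correlation of the scramble log2 fold with transcript length was -0.74 over the 43 membrane members, which share the 12 libraries, and -0.33 over 17652 tested genes with a length; in Lsg1 siRNA cells the values were -0.71 and -0.30. All 10 tested membrane members of under 600 codons were higher for both siRNAs (median 0.92 in scramble cells), while of the 33 longer ones 12 were higher, 6 lower and 15 not called (median 0.13). The shorter ones were V0 subunits other than a, accessory subunits and Na/K beta subunits. The longer ones were isoforms of the V0 a subunit and P-type pumps. Length and kind of protein went together at this cut and cannot be told apart. An offset that removes each library's trend with GC content and length left a correlation of -0.32 for either siRNA. The correlation of the fold with the number of codons was -0.67 in scramble and -0.63 in Lsg1 siRNA cells. It was -0.52 and -0.44 after the offset. With the offset 28 membrane members were higher and 1, Atp6v0a4, was lower in scramble cells, with a median of 0.32, and 1 V1 subunit, Atp6v1d, was higher and 3 were lower, with a median of -0.08. Over all 17702 genes the offset gave 4475 higher and 5727 lower, with a median of -0.03. With the offset the falls of Atp11b, Atp8a1 and Atp13a3 were not seen. The offset also takes away any length trend that belongs to the biology, and how much of the trend arose in the libraries was not tested.

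**Figure D4:**
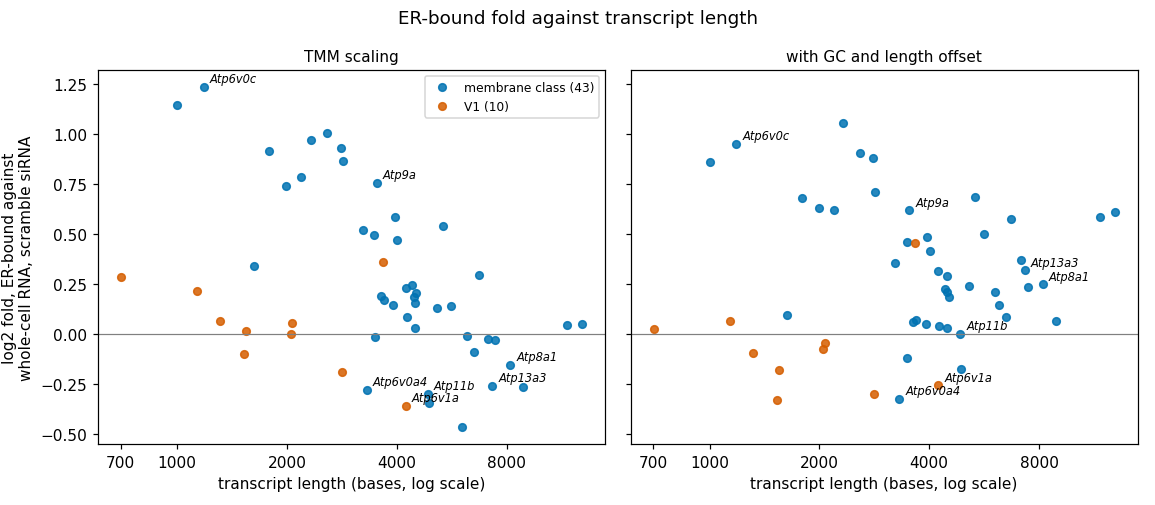
Log2 fold of ER-bound against whole-cell RNA in scramble cells (y axis) against transcript length in bases (x axis, log scale) for 43 membrane members and 10 V1 subunits, with TMM scaling on the left and with the GC and length offset on the right. On the left the fold falls with length, and on the right Atp8a1 and Atp13a3 lie above 0 while Atp6v0a4 and Atp6v1a stay below it.

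By the coding window described above the classes met at 11 codons, and the folds within the membrane class did not rise with the richness of the window. V1 subunits held 8 to 11 codons with T at position 2 in the richest window and membrane members other than Atp6v0d1 held 11 to 16. Within the 43 membrane members the Spearman correlation of that number with the scramble fold was -0.42, and -0.12 with the length and GC offset. Atp13a3 held the richest window, 16 codons, and was lower with TMM scaling, and Atp6v0e2, with 11, rose by 0.91. The window number rises with the number of codons examined, so long chains have more chances of a rich window.

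**Figure D5:**
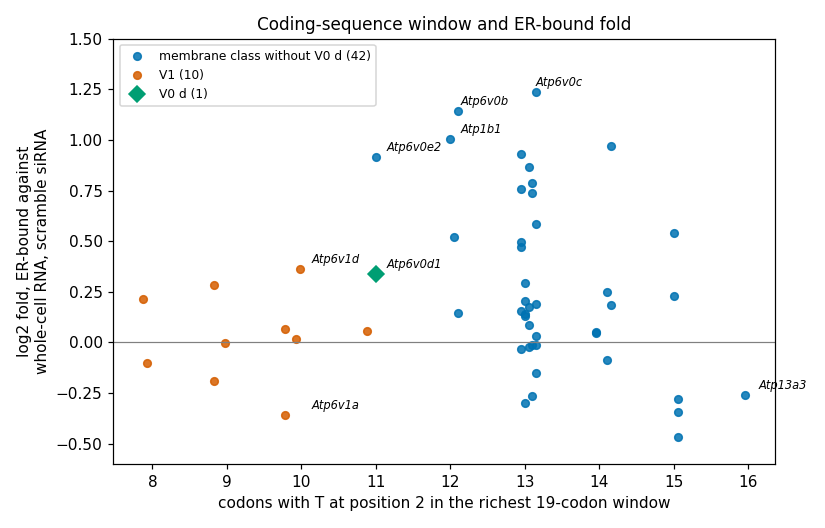
Log2 fold of ER-bound against whole-cell RNA in scramble cells (y axis) against the number of codons with T at position 2 in the richest 19-codon window (x axis; points are shifted slightly sideways) for V1, V0 d and the other membrane members. V1 subunits lie at 8 to 11 codons and membrane members at 11 to 16, and folds on both sides of 0 occur among the latter.

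The mitochondrial ATP synthase, a rotary relative whose nuclear-encoded subunits are imported after synthesis, was listed as a comparison. Of its 16 genes 12 were higher and 2 lower in scramble cells (29.8% and 29.1% of all genes), with a median of 0.19 beside 0.03 over all genes, and with Atp5a1 and Atp5b, the relatives of Atp6v1b2 and Atp6v1a in its head, at -0.16 and -0.13. The highest fold there was 0.37, for Atp5e. The 43 tested membrane members had a median of 0.19 in scramble cells as well, with 22 higher and 6 lower. Values with the length and GC offset are not given for the ATP synthase genes.

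Few ATPase mRNAs passed a test of Lsg1 against scramble siRNA, and none did in whole-cell RNA. In whole-cell RNA 0 of 53 members passed edgeR's test (0% of all genes), with 0 members at an unadjusted p under 0.05 (731 of the 17702 genes), and 0 passed with DESeq2 or limma-voom. The log2 folds ran from -0.52 to 0.17, the widest for members under 1 CPM. Whole-cell groups did not overlap for 5.23% of all genes, higher with Lsg1 siRNA, and 5.18%, lower, and for 0 and 4 of the 53 members. On ER-labelled ribosomes 1 member passed as higher and 0 as lower, against 2.63% and 1.38% of all genes (4.01% in either direction), and 13 of the 53 members had an unadjusted p under 0.05, beside 3047 of the 17702 genes. This member, Atp1b3, stood at 198, 196 and 185 CPM with Lsg1 siRNA and 182, 179 and 174 CPM with scramble siRNA, without overlap, and its log2 fold was 0.11 (SE 0.03, adjusted p = 0.0493). The call lay at the threshold and was lost with DESeq2 size factors (adjusted p = 0.0594) and in 11 of the 12 fits that left out 1 library, the exception being ER-bound scramble replicate 1.

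Without ER-bound scramble replicate 1 the count was 3, beside 463 higher and 391 lower of 17970 genes. Atp1b3 was then higher and Atp2a2 among those lower: Atp2a2 moved from 0.06 to -0.11 (adjusted p = 0.046), a change of sign that 1 library decided. The V1 subunits Atp6v1a and Atp6v1b2 did not overlap between siRNAs on ER-labelled ribosomes, with log2 folds of -0.08 (SE 0.03, adjusted p = 0.138) and -0.09 (SE 0.03, adjusted p = 0.0846), and did not pass. With the length and GC offset Atp6v1b2 passed as lower (-0.11, adjusted p = 0.0451), as did Atp9a (-0.13, adjusted p = 0.0259), and Atp1b3 did not (0.10, adjusted p = 0.109). Groups without overlap were found for 12.5% of all genes, higher with Lsg1 siRNA (6 membrane members and 1 V1 subunit), and 8.95%, lower (3 and 2). Whether the ER-bound fold itself differed between siRNAs was asked by the interaction of fraction and siRNA, which 0 of 53 members passed with edgeR, DESeq2 or limma-voom (0.0226% of all genes with edgeR, 0.0113% higher and 0.0113% lower), with 3 members at an unadjusted p under 0.05 (1219 of the 17702 genes). All 33 members called in scramble cells were also called in Lsg1 siRNA cells, in the same direction, and 7 more were called there, Atp6v1e1, Atp2a2, Atp2b4, Atp8a2, Atp8b3 and Atp8b5 among them. Of these, Atp2a2 passed in scramble cells as well once ER-bound scramble replicate 1 was left out. The 2 comparisons of siRNA use the same libraries as the comparisons of fractions, so their values are given side by side and were not set against each other.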

How the data were processed

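Poly-A RNA of 12 libraries was sequenced as paired 150 bp reads from 750 ng of RNA with 9 PCR cycles, per the labels' protocols. The authors deposited raw read counts per gene. The submitters' processing notes name the assembly GRCm39, the aligner STAR (version 2.7.9a), the counter HTSeq (version 0.11.2) and DESeq2, the last without a version. The strand setting is not given in the sources used here, so reads of overlapping genes cannot be assigned with certainty. Each table lists 55416 gene IDs and 5 summary lines, which were left out. Names, biotypes, coding sequences, GC content and lengths came from GENCODE M21, on the older assembly GRCm38, matched by ID (94.0% of IDs, 99.5% of reads), so no coordinates are given. The principal transcript was used.

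Counts were scaled by TMM, filtered with filterByExpr (17702 genes left) and compared in edgeR 4.0.16 by its quasi-likelihood test (1 mean per group over 12 libraries, 8 residual degrees of freedom, prior count 2) in R 4.3.3, with Benjamini-Hochberg adjustment over all genes and a threshold of 0.05; adjusted p-values without another tool's name are edgeR's. CPM are given per library or as mean ± SD, a spread to which read sampling and the cultures both contribute. The biological coefficient of variation was 4.42%. The members, lists and tests were chosen with earlier results of these data known, and the comparison of each library with the others of its group was chosen after seeing the data. A coding-sequence window replaced a planned measure of protein hydropathy, since no protein table was used here. Values in every library are given for the most abundant members of each role, those with the highest and lowest fold, V1 genes called higher, membrane genes called lower and members passing an siRNA test. Other settings tried were scaling by library totals or by DESeq2 size factors, testing every gene, a floor of 2 CPM in at least 3 libraries, the tests of limma-voom (limma 3.58.1) and of DESeq2 1.42.0, only the groups compared, replicate blocks, a GC and length offset (splines, 5 degrees of freedom) and libraries left out. For the fractions the pairing comes from the lysate that both were taken from, while deviations of same-numbered libraries from their group means correlated by only 0.00241 to 0.138. The fits were tested on simulated data. Figures used matplotlib 3.10.9 in Python 3.11.15. Some members are counted in the totals and not reported here by name.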

Additional observations from a re-analysis of the deposited data

How the results depend on the processing

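Of the 33 members called between fractions in scramble cells, 20 kept call and direction under every alternative that tested them, and of the 40 in Lsg1 siRNA cells 27 did. The offset for GC content and length is given first without and then with the replicate block. In scramble cells it gave 1 and 1 V1 members higher, 4 lower with the block, 1 and 1 membrane members lower, V1 medians of -0.082 and -0.082, and membrane medians of 0.32 and 0.32. In Lsg1 siRNA cells it gave 1 and 1 V1 members higher, 5 and 5 lower, 1 and 1 membrane members lower, V1 medians of -0.078 and -0.079, and membrane medians of 0.45 and 0.43. Without the block 33 membrane members were higher there, and over all 17702 genes 4583 were higher and 6019 lower. Signs turned in scramble cells for Atp11b (0.0016 and 0.0015), Atp8a1 (0.25 and 0.25) and Atp13a3 (0.32 and 0.32). In Lsg1 siRNA cells they turned for Atp11b (0.021 and 0.021), Atp8a1 (0.18 and 0.18), Atp13a3 (0.42 and 0.42), Atp6v1e1 (-0.078 and -0.078) and Atp6v1f (-0.027 and -0.026). The cause was not tested.

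Scaling by library totals moved the median of all genes to 0.11 for either siRNA, and 60.8% (scramble) and 61.7% (Lsg1 siRNA) of called genes were then higher, against 50.7% with TMM. It gave 5 V1 members higher in scramble cells, V1 medians of 0.11 and 0.11, and a membrane median of 0.46 with Lsg1 siRNA. The log2 ratio of V1 sums turned to 0.069 and 0.052, and that of V0 sums moved to 0.84 and 0.88. DESeq2 size factors gave -0.050 for V1 sums with Lsg1 siRNA and 0.75 for V0 sums with scramble. The stricter filter gave medians of 0.062 (V1) and 0.30 (membrane) with Lsg1 siRNA. Leaving out replicate 3 of both the ER-bound scramble and whole-cell Lsg1 groups gave -0.019 and 0.31 for these, and -0.049 for V1 sums.

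Members called between siRNAs on ER-labelled ribosomes numbered 1 as reported, 0 with DESeq2 size factors, library totals or only the groups compared, 3 with the stricter filter and 2 with the offset (Atp6v1b2, adjusted p = 0.0451, and Atp9a, 0.0259, both lower, and not Atp1b3). Over all genes the stricter filter called 496 higher and 338 lower of 12578, and the offset 393 and 368 of 17702. With 1 library left out in turn the members called ran from 0 to 3. Members called between fractions ran from 27 to 35 (scramble) and 35 to 41 (Lsg1 siRNA), membrane members higher from 17 to 25 and 24 to 29, membrane members lower from 4 to 7 and 6 to 6, and V1 members higher from 3 to 3 and 3 to 4. Medians ran from 0.017 to 0.056 and -0.0087 to 0.042 for V1, and from 0.13 to 0.21 and 0.28 to 0.40 for membrane members. Log2 ratios of sums ran from -0.017 to -0.0033 and -0.049 to -0.023 for V1, and from 0.75 to 0.78 and 0.78 to 0.81 for V0. Without ER-bound scramble replicate 1, Atp2a2 and Atp2b1 were among those that gained a call in scramble cells, Atp8a1 lost one, and Atp2b1 gained one with Lsg1 siRNA.

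Same-numbered libraries of the siRNA comparisons were not taken as paired: their deviations from the group means correlated by 0.173, 0.00727 and 0.144 on ER-labelled ribosomes and 0.0370, 0.0391 and 0.0970 in whole-cell RNA. The replicate block gave 2 members called on ER-labelled ribosomes, beside 749 higher and 429 lower of all 17702 genes. Together with the offset it gave 8 members, beside 698 higher and 689 lower of all genes. Between fractions, of the members named, the blocks without the offset changed the call of Atp8b5 (Lsg1 siRNA).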
